A study of Capra hircus with 2 samples.

Results

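Transcripts of 6 genes tied to blood vessels were compared between goat muscle of 2 ages. Of these genes, 5 mark the endothelium, the cell layer lining vessels: PECAM1, CDH5, KDR, TEK and NOS3. The other, VEGFA, is the growth factor that acts on it. The genes were taken as the rows of 6 RefSeq transcript accessions, out of 11663 accessions with reads in either library. All 6 had reads in both. The deposited lists give accessions without gene symbols. The names used here are those of the cattle RefSeq transcripts with these accessions, and this pairing could not be checked against a table, since 0 of the 11663 accessions were found in the goat RefSeq table used here (assembly ARS1.2). For the same reason no other gene of the pathway, and no marker of muscle fibres, pericytes, blood cells or other cells, was counted, and the labelled tissue was not checked against its own markers.

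The tissue was longissimus thoracis, a back muscle, of the Chinese Xuhuai goat breed. The fetal muscle, 1 library, was taken at gestation day 90 (gestation lasts 150 days), and the older muscle, 1 library, at 6 months of age, with no treatment or genetic change named in the labels. The number of animals behind each library, and the way the older muscle was collected, are not stated in the labels. With 1 library per age there is no replicate check and no test across animals. The libraries held 12811117 (fetal) and 9144138 (6-month) unique reads.

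Vessels form and branch when endothelial cells respond to VEGFA, a secreted protein made by many cells, muscle fibres among them, and produced in larger amounts when oxygen is short. KDR, also called VEGF receptor 2, is its main signalling receptor on endothelium. TEK (TIE2) is the receptor for the angiopoietins, which steady or loosen the vessel wall, CDH5 (VE-cadherin) and PECAM1 (CD31) hold endothelial cells to each other, and NOS3 (eNOS) makes nitric oxide, which relaxes the vessel.

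On the deposited RPKM, the ligand and the vessel markers lay on opposite sides. VEGFA was 5.25-fold higher at 6 months than in the fetal library, whereas the 5 markers were 1.21-fold to 3.33-fold higher in the fetal library. For KDR, CDH5 and NOS3 this direction held under every scaling tried, but after centring on the median ratio PECAM1 was 1.23-fold higher at 6 months and TEK was 1.06-fold higher in the fetal library, with an interval that holds 1 (0.93 to 1.22). The levels are in RPKM, reads scaled to transcript length and to the reads of the library, so that genes of different length can be compared. A fold here is the ratio of the shares of all reads, with an exact conditional binomial 95% interval. These intervals compare the libraries, not the ages in general, and cover counting error only. They take each read as a separate molecule, so PCR copies among the reads would make them too narrow. In whole muscle, fewer endothelial cells, less RNA of a gene per cell and more reads from other genes cannot be told apart.

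**Figure D1:**
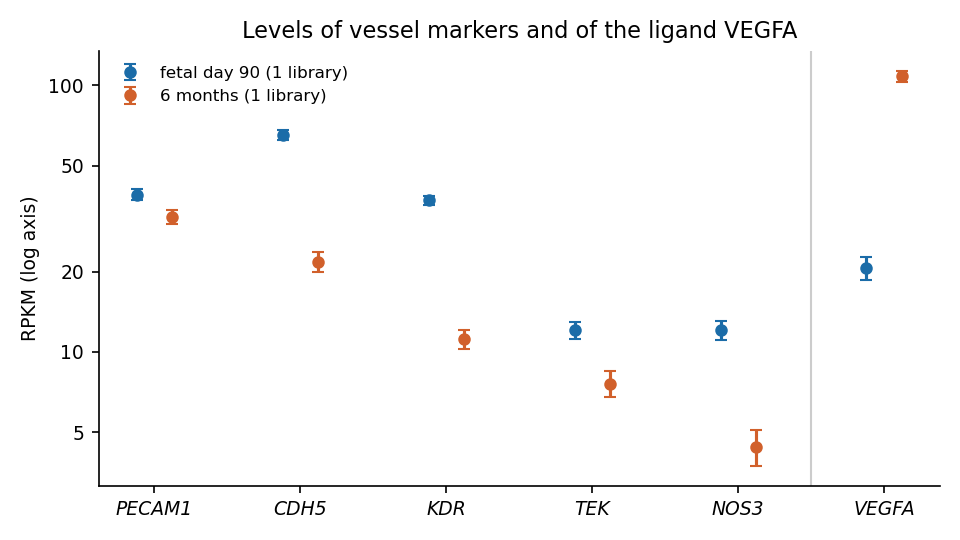
RPKM (log axis) of the 5 vessel markers and of VEGFA in the fetal library (blue) and the 6-month library (orange), 1 library each; bars are exact Poisson 95% intervals of the counts. On this scale each marker lies higher in the fetal library, PECAM1 by the smallest step (38.8 against 32.0), which turns around after centring on the median ratio, and VEGFA lies higher at 6 months (20.6 against 108.1).

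VEGFA (NM_174216, a transcript of 1536 bases) had 405 reads in the fetal library, an RPKM of 20.6 (95% interval 18.6 to 22.7). At 6 months it had 1518 reads, an RPKM of 108.1 (102.7 to 113.7). The share of reads was thus 5.25-fold higher at 6 months (4.70 to 5.87). VEGFA moved from rank 3213 of the 11393 accessions listed in the fetal library to rank 624 of the 10850 listed at 6 months.

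The VEGFA receptor KDR (NM_001110000, 5998 bases) had the largest fold of read shares among the 5 markers, not set apart from that of CDH5 by counting error. It had 2849 reads and an RPKM of 37.1 (35.7 to 38.5) in the fetal library, against 611 reads and 11.1 (10.3 to 12.1) at 6 months. This is a 3.33-fold higher share in fetal muscle (3.05 to 3.64). Ligand and receptor of the same signal therefore lay in opposite directions between these libraries.

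The angiopoietin receptor TEK (NM_173964, 4625 bases) differed less. It had 715 reads and an RPKM of 12.1 (11.2 to 13.0) in the fetal library and 321 reads and 7.59 (6.78 to 8.47) at 6 months. The ratio in favour of the fetal library was 1.59 (1.39 to 1.82).

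Of the junction proteins, CDH5 (NM_001001601, 2818 bases) was the most abundant member in the fetal library, with 2354 reads and an RPKM of 65.2 (62.6 to 67.9). At 6 months it had 561 reads and an RPKM of 21.8 (20.01 to 23.6), a level 2.995-fold higher in the fetal library (2.73 to 3.29). PECAM1 (NM_174571, 3459 bases), which platelets and leukocytes are also known to carry, had 1721 reads and an RPKM of 38.8 (37.0 to 40.7) in the fetal library and 1013 reads and 32.0 (30.1 to 34.1) at 6 months. Its ratio of 1.21 (1.12 to 1.31) was the smallest of the 5 markers. The junction genes thus differed from each other: CDH5 lay near KDR, PECAM1 close to no difference.

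NOS3 (NM_181037, 4093 bases), the enzyme, was the scarcest member at 6 months, with 164 reads and an RPKM of 4.38 (3.74 to 5.11). In the fetal library it had 631 reads and an RPKM of 12.03 (11.1 to 13.0). It was 2.75-fold higher there (2.31 to 3.28). Its interval is the widest among the markers because it rests on the fewest reads.

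For calls, the difference was taken as log2(RPKM + 1) of the fetal minus the 6-month library, a pseudocount that understates the difference of low transcripts, and a gene was called higher on a side at a difference of at least 1 log2 unit. KDR (1.65), CDH5 (1.54) and NOS3 (1.28) were called higher in the fetal library, 3 of the 6 genes, beside 35.1% of all 9705 accessions that reached an RPKM of 1 in one library or both. VEGFA (-2.34) was called higher at 6 months, 1 of 6 beside 9.46% of all accessions. TEK (0.61) and PECAM1 (0.27) were not called. The 5 markers had a median difference of 1.28, beside 0.61 over all accessions compared, so TEK lay at the general median and PECAM1 under it.

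That general shift bears on the direction of the markers. Over the 8201 accessions that reached an RPKM of 1 on both sides, the median log2 ratio was 0.58 in favour of the fetal library. After centring on this median, KDR was still 2.23-fold higher in the fetal library (2.04 to 2.44), CDH5 2.01-fold (1.83 to 2.20) and NOS3 1.84-fold (1.55 to 2.20). TEK and PECAM1 then had the values given above, PECAM1 on the other side, and VEGFA was 7.84-fold higher at 6 months. KDR alone was then called higher in the fetal library (log2 difference 1.11), 1 of 6 beside 22.3% of all accessions, as CDH5 (0.98) lay just under the threshold and NOS3 at 0.79. VEGFA alone was called higher at 6 months (-2.91), 1 of 6 beside 17.2% of all. With read totals taken without the 50 most abundant accessions, PECAM1 stood at 1.03-fold (0.96 to 1.12). Its direction is thus set by the scaling, while KDR, CDH5 and NOS3 on the fetal side and VEGFA on the 6-month side kept theirs under all 5 scalings tried.

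**Figure D2:**
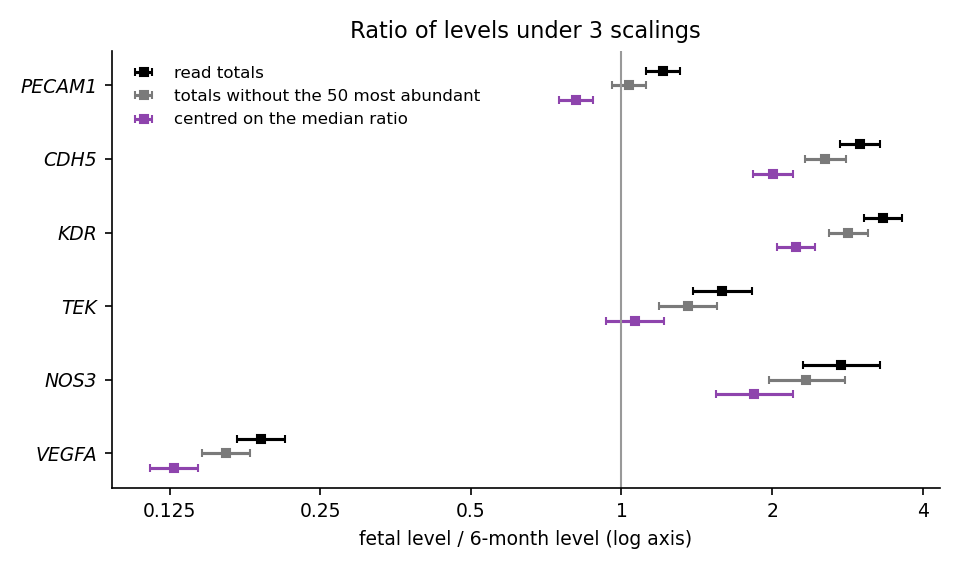
Ratio of the fetal to the 6-month level of each gene (log axis) scaled by read totals (black), by totals without the 50 most abundant accessions (grey) and after centring on the median ratio (purple); bars are 95% counting intervals and the grey line marks equal levels. PECAM1 passes from 1.21 through 1.03 to 0.81, TEK reaches the line after centring, and VEGFA lies at 0.19, 0.16 and 0.13.

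Among all accessions, VEGFA stood near the edge. Only 2.43% of the 9705 accessions compared had a difference further toward 6 months. Of 433 accessions with a mean RPKM within 20% of that of VEGFA, 19 lay further toward 6 months, and their median difference was 0.27 log2 units toward the fetal library. The markers were less extreme. KDR exceeded 735 of 889 accessions of like mean level, CDH5 467 of 570 and NOS3 808 of 1103. TEK exceeded 560 of 1143 and PECAM1 306 of 673, so that both lay slightly under the middle of accessions of their abundance. These places describe the libraries and are no test. Very few accessions resembled VEGFA: 8 others lay within 0.25 of it on the log2(RPKM + 1) scale in both libraries, against 34 for CDH5, 69 for KDR, 101 for PECAM1, 151 for NOS3 and 222 for TEK. As they carry no gene symbol, they are not named.

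**Figure D3:**
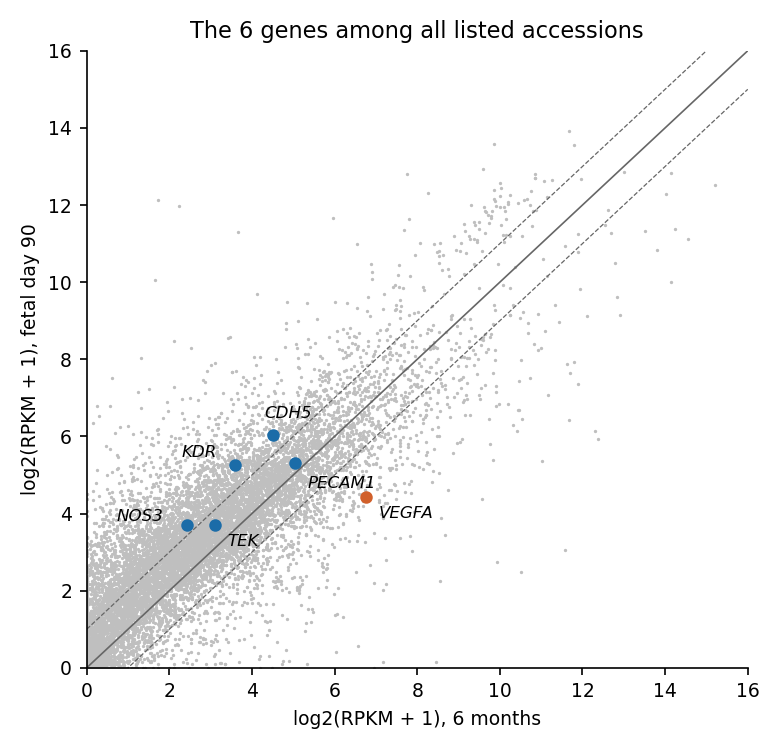
log2(RPKM + 1) of every listed accession (grey points) at 6 months and in the fetal library, with the vessel markers in blue and VEGFA in orange; the solid line marks equal levels and the dashed lines a difference of 1 log2 unit. KDR, CDH5 and NOS3 lie above the upper dashed line, TEK and PECAM1 between the lines, and VEGFA below the lower one.

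The ratio of the ligand to the markers needs no scaling between libraries, since the read totals and transcript lengths cancel when the ratio of 2 genes is compared between libraries. All 15 pairs of the 6 genes were computed, with exact conditional 95% intervals of the odds ratio. The pairs share genes and are not independent. In the fetal library VEGFA stood at 0.56 times the RPKM of its receptor KDR, and at 6 months at 9.70 times. This ratio was 17.5-fold higher at 6 months (15.2 to 20.2). VEGFA to CDH5 went from 0.32 to 4.96, a 15.7-fold difference (13.6 to 18.2) whose interval overlaps that for KDR, and VEGFA to NOS3 from 1.71 to 24.7, a 14.4-fold difference (11.7 to 17.8). VEGFA to TEK, at 1.71 in the fetal library and 14.2 at 6 months, differed 8.35-fold (7.01 to 9.95). VEGFA to PECAM1, at 0.53 and 3.37, differed 6.37-fold (5.56 to 7.30). In the fetal library VEGFA thus lay under 3 of the markers by RPKM, and at 6 months above all 5. Unlike the comparison between libraries, these places depend on the listed transcript lengths, which do not cancel within a library.

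As reads, the 5 markers together had 8270 reads in the fetal library, 0.0646% of all reads (exact 95% interval 0.0632% to 0.0660%), and 2670 at 6 months, 0.0292% (0.0281% to 0.0303%). Summed, they took a 2.21-fold higher share of all reads in fetal muscle (2.12 to 2.31). This fold was not centred on the general shift of 0.58 log2 units toward the fetal library. Long transcripts such as KDR, with 2849 fetal reads, weigh more in it. VEGFA reads came to 4.90% of the number of marker reads in fetal muscle and to 56.9% at 6 months, an 11.6-fold difference (10.3 to 13.1).

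**Figure D4:**
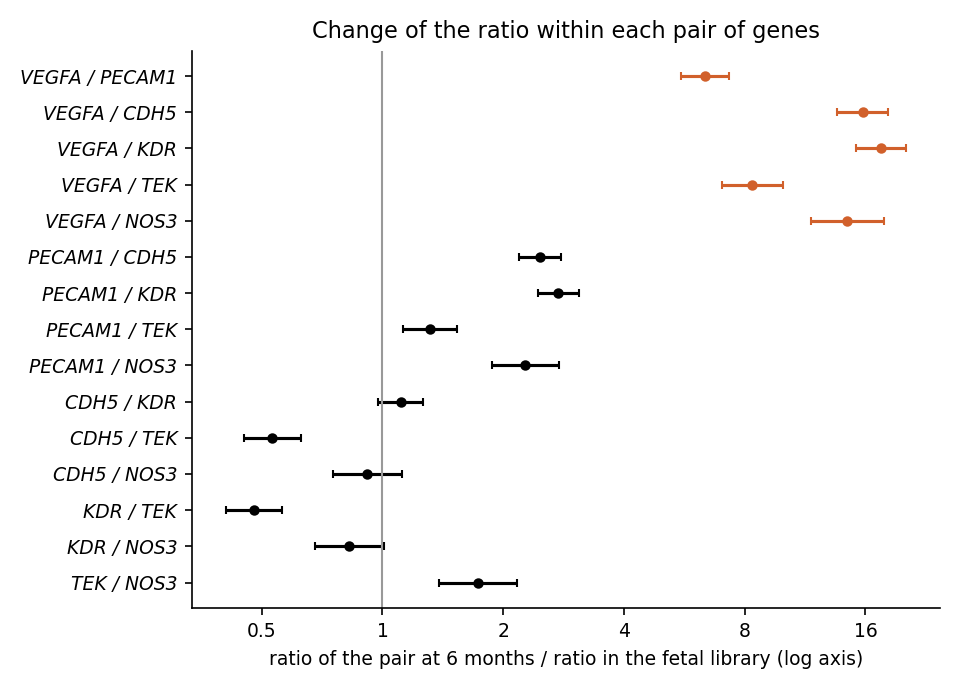
For each pair of genes, the ratio of their levels at 6 months divided by that ratio in the fetal library (log axis), with exact conditional 95% counting intervals; pairs with VEGFA are in orange, pairs of vessel markers in black, and the grey line marks an equal ratio. The 5 pairs with VEGFA lie between 6.37 and 17.5, and the marker pairs between 0.48 and 2.74.

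The 5 markers were not in one proportion in both libraries. KDR, CDH5 and NOS3 kept ratios to each other whose intervals hold 1: CDH5 to KDR differed 1.11-fold (0.98 to 1.26), CDH5 to NOS3 0.92-fold (0.75 to 1.12) and KDR to NOS3 0.83-fold (0.68 to 1.01), each as 6 months over fetal. Such intervals leave room for differences of up to about their outer bounds. The other 7 marker pairs had intervals that exclude 1. PECAM1 was higher at 6 months relative to KDR by 2.74-fold (2.44 to 3.09), to CDH5 by 2.47-fold (2.19 to 2.79), to NOS3 by 2.26-fold (1.87 to 2.75) and to TEK by 1.31-fold (1.12 to 1.53). TEK was higher at 6 months relative to KDR too, as KDR to TEK stood at 3.07 in the fetal library and 1.47 at 6 months. CDH5 to TEK passed likewise from 5.40 to 2.87, and TEK to NOS3 from 1.003 to 1.73. KDR, CDH5 and NOS3 thus went together, while TEK and PECAM1 each differed from them and also from each other. This grouping was read from these values and not tested.

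In the summed RPKM of the 5 markers, 165.2 in the fetal library and 76.9 at 6 months, the leading gene differed. CDH5 made up 39.5% of it in the fetal library and 28.3% at 6 months, whereas PECAM1 made up 23.5% and 41.6%. KDR made up 22.4% and 14.5%, TEK 7.30% and 9.87%, and NOS3 7.28% and 5.70%.

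Ordered by RPKM, the fetal library ran CDH5, PECAM1, KDR, VEGFA, TEK, NOS3. Of these neighbours, PECAM1 and KDR (ratio 1.05, 0.99 to 1.11) and TEK and NOS3 (1.003, 0.90 to 1.12) did not differ beyond counting error. At 6 months the order was VEGFA, PECAM1, CDH5, KDR, TEK, NOS3, and the intervals of all 5 neighbouring pairs lay above 1, the closest being KDR over TEK at 1.47 (1.28 to 1.69). The spread between animals is unknown for both orders, and both depend on the listed transcript lengths. CDH5 thus stood above PECAM1 in the fetal order and below it at 6 months, and VEGFA moved from the fourth place to the first. PECAM1 and NOS3 came second and last in both. In the fetal library, though, counting error did not set them apart from KDR and TEK respectively.

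Coverage, the part of a transcript that reads touched, is also given in the files and comes from the same reads as the RPKM. Reads covered 90.49% of VEGFA in the fetal library and 94.99% at 6 months. KDR was covered to 93.01% and 82.96%, TEK to 91.94% and 85.86%, and NOS3 to 95.24% and 85.88%. The library with the higher RPKM also had the higher coverage for each of these genes, and for PECAM1. As both values come from the same reads, this is no separate evidence for the directions. VEGFA, KDR, TEK and NOS3 were each covered more fully than the median of accessions with reads per base within 20% of their own. NOS3 stood out most, with 82.95% for that median in the fetal library and 70.66% at 6 months.

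CDH5 was the exception. It was covered to 85.31% by 2354 fetal reads and to 85.34% by 561 reads at 6 months, so that 414.0 and 413.1 bases were without reads. PECAM1 was covered to 82.65% and 79.18%, under the medians of 87.72% and 86.98% for accessions of like depth. All 6 transcripts had bases without reads in both libraries, and the percentages do not show whether these were the same bases. Whether goat RNA differs from the listed transcripts was not tested, as their sequences were not used here. Counting reads per covered base, a setting chosen after seeing the data, was done on read totals only, without centring. On that scaling it left each direction as it was. The log2 ratios were 1.57 for KDR, 1.58 for CDH5, 1.31 for NOS3, 0.57 for TEK, 0.22 for PECAM1 and -2.32 for VEGFA. KDR and CDH5 thereby changed places as the marker with the largest ratio. The fetal ratio of PECAM1 to KDR became 1.18 by that measure, so the order of the pair was the same.

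**Figure D5:**
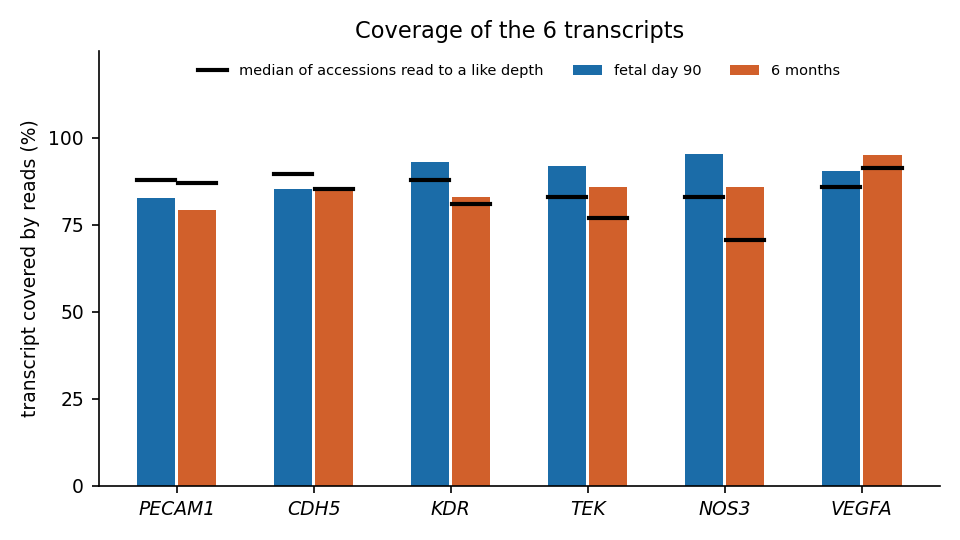
Percentage of each transcript covered by reads in the fetal library (blue bars) and the 6-month library (orange bars), with the median coverage of accessions whose reads per base lie within 20% of the gene's as black lines. KDR, TEK, NOS3 and VEGFA lie above these medians in both libraries, PECAM1 lies below them, and CDH5 lies below its median in the fetal library and at it (85.3%) at 6 months.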

How the data were processed

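Trizol RNA from snap-frozen muscle went into Illumina libraries, per the labels' protocols. The authors deposited, per the file headers, the count of unique reads per transcript accession, the transcript length, the RPKM and the coverage in percent. Aligner, counting, strand use, build and transcript set were not stated there, so reads shared with related or overlapping genes, and splice forms of VEGFA, cannot be told apart. The deposited counts summed to the totals in the headers.

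All values were computed over every accession, and the 6 genes were then read out. The pseudocount was 1, the minimum RPKM 1 and the threshold 1 log2 unit. Intervals are exact at 95%. Centring multiplied the 6-month RPKM by the median ratio. The procedure was tested on simulated Poisson counts. These held no general shift between the libraries, no spread between animals and no PCR copies, so the test does not bear on those. The alternatives were other pseudocounts, minimums, thresholds and 4 other scalings. All 6 genes were named, whatever their values, and the genes and lists were chosen with earlier results of these data known. Python 3.11.15, NumPy 2.4.6, pandas 2.3.3, SciPy 1.17.1 and matplotlib 3.10.9 were used.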

Additional observations from a re-analysis of the deposited data

How the results depend on the processing

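No paired analysis was possible because each age has 1 library, and for that reason no replicate could be left out. VEGFA was called higher at 6 months under all 10 alternatives, but not all of these could change its call. With an RPKM of 108.1 and 1518 reads at 6 months, it passed every minimum tried. Either centring moved it further toward 6 months. The median difference of the 5 markers (1.28 log2 units) was 0.86 with a pseudocount of 5, 0.79 with either centring, and 0.94 without CDH5 or without KDR. VEGFA minus that median (-3.61) was -3.00 with a pseudocount of 5, -2.61 against PECAM1 alone, -2.94 against TEK alone, -3.99 against KDR alone and -3.28 without CDH5 or without KDR. The 3 genes called higher in the fetal library became 1 with either centring and 0 at a threshold of 2. Over all 9705 accessions compared, fetal calls fell as well, from 3411 (35.1%) to 1811 with a pseudocount of 5 and 2162 (22.3%) with the median. They fell to 2157 with the trimmed mean and 1051 at a threshold of 2. The 918 6-month calls (9.46%) became 1674 (17.2%) with the median, 1678 with the trimmed mean and 339 at a threshold of 2. NOS3 was not called with a pseudocount of 5 (0.86). The cause of these shifts was not tested. Depth limits NOS3 most, with 164 reads at 6 months.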
